A study of Mus musculus with 8 samples.

Results

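The genes described here encode the machinery that carries nuclear-encoded proteins into mitochondria and folds, trims or degrades them in the matrix. They were the rows of the count table whose symbol starts with Timm or Tomm followed by a digit, together with 17 named genes of the import motor, the disulfide relay, the outer membrane sorting machinery, the processing peptidase and the matrix chaperones and proteases. The rule found 42 of the 21983 symbols, and it used names only, not measured values. Of these, 39 had enough counts to be tested, among 11520 tested genes. RNA-seq counts came from the mouse hepatocyte cell line AML-12. In 4 libraries the cells overexpressed the mouse gene GM47544, and 4 control libraries are titled for pLKO.1, a lentiviral vector, with the genotype given as WT. All libraries were made from total RNA of cells grown in DMEM with fetal bovine serum. The titles name no vector for the overexpression libraries, and the labels do not say whether the cells were clones. Nor do they say that replicates were grown apart, so the spread behind each p-value may be technical.

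Library totals ran from 11016907 to 17338310 counts in GM47544 libraries and from 12256376 to 18965662 in pLKO.1 libraries. The overexpressed gene itself was not analysed here, so the labels were not checked by it. Levels are in CPM, counts scaled to library size. Of 8 hepatocyte markers, 7 reached 1 CPM on average, Apoa1 being the exception, with sums of 4370 to 4790 CPM in GM47544 libraries and 4560 to 7110 CPM in pLKO.1 libraries. Of 5 bile duct markers 4 reached it, with sums of 4480 to 5080 CPM in GM47544 libraries and 2790 to 4140 CPM in pLKO.1 libraries. Of 5 macrophage markers 2 did, at 9.94 to 13.2 CPM in GM47544 libraries and 26.7 to 32.6 CPM in pLKO.1 libraries, with Adgre1 and Clec4f at 0. Of 5 stellate cell markers 2 did, at 9.77 to 17.4 CPM in GM47544 libraries and 3.56 to 5.38 CPM in pLKO.1 libraries, with Lrat at 0, and of 5 endothelial markers 0 did. The part of these marker differences in the results was not tested. In all, 64.4% of tested genes changed in either direction, so counts of import genes are read below against the share of all tested genes. The third control, pLKO.1 library 3, lay apart from the other controls on the first principal component, at -25.9 against -63.6 to -53.4, with GM47544 libraries at 46.4 to 53.6. In bulk RNA, less transcript per cell and fewer cells with the transcript cannot be told apart.

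Nearly all mitochondrial proteins are made in the cytosol and cross the outer membrane through the TOM complex. From there, beta-barrel proteins go to the sorting machinery (SAM), small cysteine-rich proteins are trapped by a disulfide relay, carrier proteins are escorted by small TIM chaperones to the carrier translocase (TIM22), and proteins with a presequence pass the presequence translocase (TIM23) and are pulled in by a motor built on mitochondrial Hsp70. In the matrix the presequence is cut off, and the Hsp60 and Hsp10 chaperonin folds the protein, while Lonp1 and Clpp degrade damaged ones. Hepatocytes are rich in mitochondria, and matrix chaperones are known targets of the mitochondrial unfolded protein response.

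The promoters of 4 members are shown because the results turn on these genes. Hspe1 and its head-to-head neighbour Hspd1 encode the chaperonin pair, Chchd4 is the oxidoreductase of the disulfide relay, Timm10 is a small TIM chaperone, and Timm10b was higher in GM47544 libraries. Each window runs from 250 bases before to 50 bases after a RefSeq start on GRCm38.p6, the assembly that mm10 names, and is written 5′ to 3′ on the gene's strand. Capitals mark matches to the consensus of nuclear respiratory factor NRF1 (GCGC, any pair of bases, then GCGC), to CCGGAAG, a core bound by ETS factors such as GABP, and to the E-box CACGTG, on either strand.
Hspe1, chr1:55087898-55088197, plus strand: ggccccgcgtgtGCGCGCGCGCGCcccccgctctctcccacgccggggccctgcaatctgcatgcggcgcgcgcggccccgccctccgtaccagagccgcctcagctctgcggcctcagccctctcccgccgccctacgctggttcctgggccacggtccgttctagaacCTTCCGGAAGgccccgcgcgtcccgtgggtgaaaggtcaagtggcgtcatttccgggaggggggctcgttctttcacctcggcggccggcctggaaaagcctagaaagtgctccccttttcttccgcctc
Chchd4, chr6:91473374-91473673, minus strand: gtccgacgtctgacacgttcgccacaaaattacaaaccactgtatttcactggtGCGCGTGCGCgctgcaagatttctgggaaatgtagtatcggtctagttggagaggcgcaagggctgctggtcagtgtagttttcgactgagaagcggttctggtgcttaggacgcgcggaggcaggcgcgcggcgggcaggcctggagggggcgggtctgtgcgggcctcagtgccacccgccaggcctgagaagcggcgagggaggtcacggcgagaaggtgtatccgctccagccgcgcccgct
Timm10, chr2:84826771-84827070, plus strand: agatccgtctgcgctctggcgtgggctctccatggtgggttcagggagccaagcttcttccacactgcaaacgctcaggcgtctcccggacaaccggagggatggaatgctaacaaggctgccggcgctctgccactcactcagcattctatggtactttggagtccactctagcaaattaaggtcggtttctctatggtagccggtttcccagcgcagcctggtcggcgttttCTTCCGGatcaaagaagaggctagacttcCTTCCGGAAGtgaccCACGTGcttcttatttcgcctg
Timm10b, chr7:105640195-105640494, plus strand: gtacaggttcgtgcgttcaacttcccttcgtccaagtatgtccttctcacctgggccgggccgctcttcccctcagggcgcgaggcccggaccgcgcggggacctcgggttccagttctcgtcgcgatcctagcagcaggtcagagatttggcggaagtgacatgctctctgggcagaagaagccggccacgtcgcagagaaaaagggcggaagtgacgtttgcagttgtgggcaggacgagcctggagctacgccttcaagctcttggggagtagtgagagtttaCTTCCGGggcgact

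The Hspe1 window also holds 1 of the 2 RefSeq starts of Hspd1, at position 55087932 on the opposite strand and 216 bases from the Hspe1 start. Across the 37 members with an entry, CCGGAAG was found in 18 of 40 windows (45%), against 8.86% of all 32851 windows and 17.8% of the 11654 windows of tested genes. The NRF1 consensus was found in 7 of 40 windows (17.5%), against 6.23% of all windows and 13% of those of tested genes, and CACGTG in 7 of 40 (17.5%), against 7.15% and 9.91%. CCAAT was found in 11 of 40 windows (27.5%), against 37.4% and 38%. TGATGNAA, the C/EBP-ATF element that factors such as ATF4 and CHOP bind, was in 0 of 40 member windows, against 3.97% and 2.31%. Some windows overlap, so a match can be counted more than once. The Hspe1 window and that of the Hspd1 start inside it share their NRF1 and CCGGAAG matches. Both Tomm34 windows also hold the same CCGGAAG match. Matches of different motifs did not overlap in any member window. These shares describe letters in the windows and are not evidence of binding.

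The import and matrix genes were mostly lower in GM47544 libraries. Of the 39 tested, 27 (69.2%) fell in edgeR's quasi-likelihood test (adjusted p under 0.05), against 32.1% of all tested genes. Timm10b and Pam16 rose, 2 genes against 32.3% of all tested genes, and 10 did not pass; the Pam16 call depends on how reads of a near-identical gene are counted. At least 2-fold decreases were found for 16 of the 39 (41%), against 9.02% of all tested genes. The 4 GM47544 values lay below the 4 pLKO.1 values for 27 of the 39, against 27.5% of all tested genes, and above them for 3, against 28.5%. The median log2 fold change was -0.87, against 0.00041 over all tested genes, and -0.74 with scaling by library totals alone, which shifts the median of all genes to 0.13. The members together took 0.311%, 0.303%, 0.294% and 0.294% of counts in GM47544 libraries 1 to 4, against 0.437%, 0.436%, 0.439% and 0.429% in pLKO.1 libraries 1 to 4. Without Hspd1, Hspa9 and Hspe1 the controls spread more, at 0.309%, 0.297%, 0.258% and 0.318%, against 0.184% to 0.193% in GM47544 libraries.

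**Figure D1:**
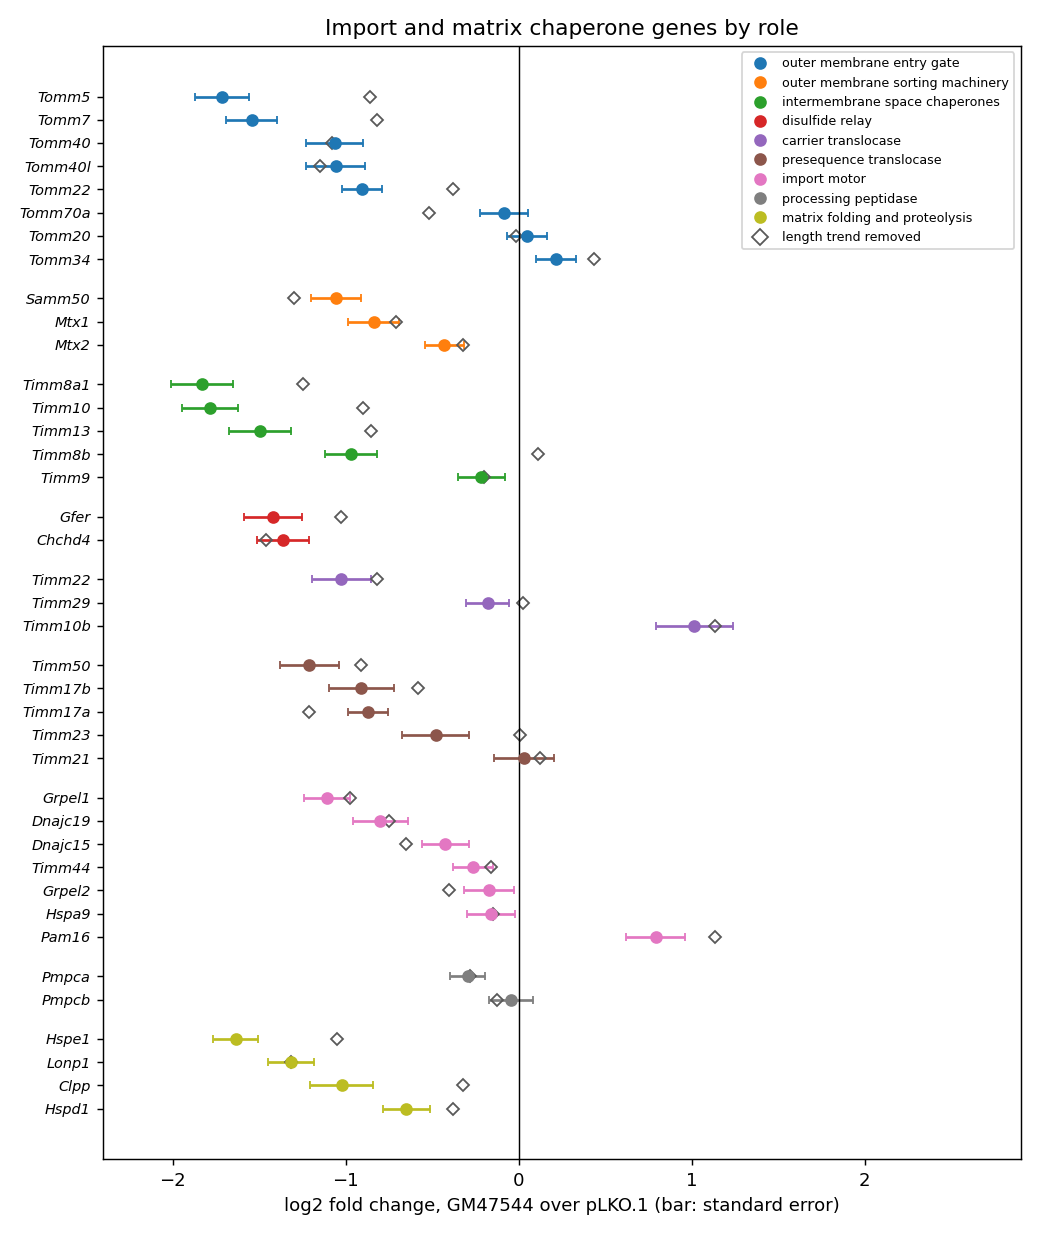
Log2 fold change (GM47544 over pLKO.1, x axis) of the 39 tested genes, grouped and coloured by role, with the standard error as a bar; open diamonds show the same value with the trend on gene length removed from each library. Most points lie left of 0, Tomm5, Timm8a1 and Timm10 are near the left end, and Timm10b and Pam16 stand at the right.

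Genes with a short summed exon length were lower in GM47544 libraries across the whole table, and several import genes are short by this measure. The sum can far exceed the longest transcript of a gene, as for Tomm40, with 4513 against 1646 bases. Length groups and the length correction used the sum, and transcript length was not tested. Over 11491 tested genes with a length, the Spearman correlation of the log2 fold change with summed exon length was 0.412, and over the 39 members it was 0.44; genes are not independent replicates, and these are descriptions. Of the members under 1500 bases 8 of 8 were lower, against 68% of tested genes of that length; from 1500 to 3000 bases it was 6 of 7, against 50.2%; from 3000 to 6000 bases 10 of 19, against 31.3%; and above 6000 bases 3 of 5, against 14%. With the length trend removed from each library, 27 of 39 members (69.2%) were lower, against 31.1% of all tested genes, and 3 were higher, against 29.6% (60.6% in either direction), with Tomm34 added to Timm10b and Pam16. The median of the members was then -0.58, against -0.011 for all tested genes. RNA quality was not measured in these files, and its part in the length trend was not tested.

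**Figure D2:**
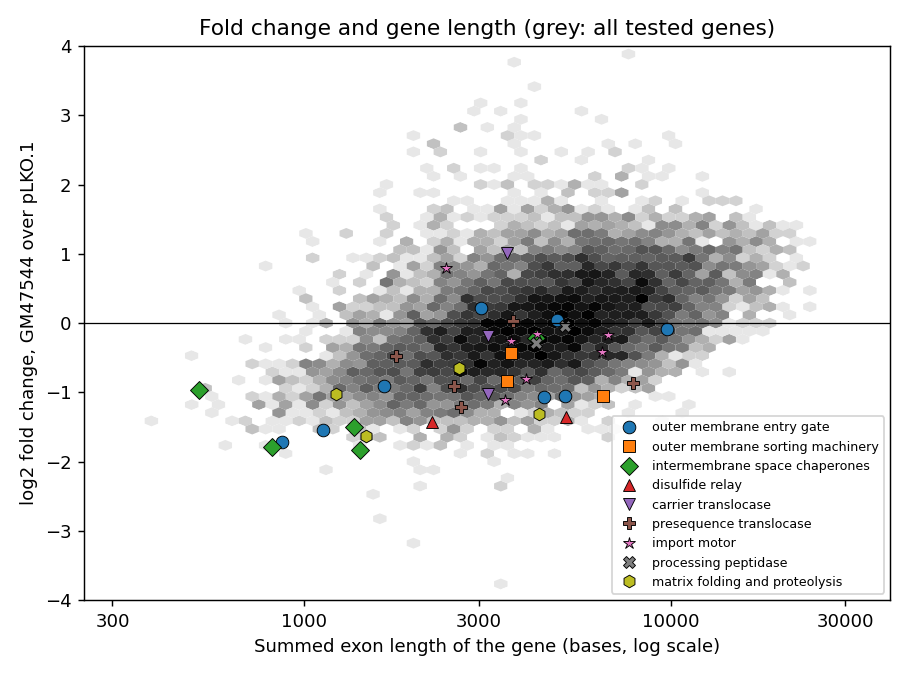
Log2 fold change (y axis) against summed exon length in bases (x axis, log scale) for all tested genes as grey density (darker bins hold more genes) and for the 39 import and matrix genes as coloured symbols by role. The grey cloud rises with length, and the members under 1500 bases all lie below 0, while longer members such as Lonp1, Chchd4 and Samm50 lie below the cloud's centre.

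At the outer membrane entry gate, the small subunits, the pore and the receptor Tomm22 were lower, while the receptors Tomm20 and Tomm70a did not pass. Of 8 tested genes 5 fell (62.5%, against 32.1% of all tested genes), 0 rose and 3 did not pass, with a median log2 fold change of -0.98. Tomm5, a small subunit that stabilises the complex, had 16.6, 20.2, 19.2 and 17.1 CPM in GM47544 libraries 1 to 4, against 68.2, 55.3, 45.2 and 72.1 CPM in pLKO.1 libraries 1 to 4 (log2 fold change -1.72, SE 0.16, adjusted p = 2.71e-06). Tomm7, another small subunit, had 29.3, 25.8, 26.7 and 24.2 CPM in GM47544 libraries, against 81.1, 74.7, 58.9 and 94.5 CPM in pLKO.1 libraries (-1.54, SE 0.15, adjusted p = 3.59e-06). The groups stood well apart for both, and pLKO.1 library 3 was the lowest control each time. Both genes are short, with 868 and 1125 bases, and their log2 fold changes were -0.86 and -0.82 with the length trend removed.

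Tomm40, the channel of the gate, had 100.2, 104, 97.4 and 88.8 CPM in GM47544 libraries, against 236, 195, 136 and 248 CPM in pLKO.1 libraries (log2 fold change -1.06, SE 0.16, adjusted p = 1.25e-04). Its paralogue Tomm40l fell by the same size at a far lower count, with 8.83, 7.33, 8.02 and 8.79 CPM in GM47544 libraries, against 17.6, 16.5, 12.6 and 22.0 CPM in pLKO.1 libraries (-1.06, SE 0.17). Neither value shrank with the length trend removed, at -1.08 and -1.15. In the annotation 64.3% of Tomm40l exon bases overlap Nr1i3 on the opposite strand, and Nr1i3 had 0 counts in every library. Tomm22, the central receptor and organiser of the gate, averaged 105 ± 4.71 CPM in GM47544 libraries and 197 ± 24.0 CPM in pLKO.1 libraries (SD, n = 4; -0.91, and -0.38 with the length trend removed).

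The receptor Tomm20, which binds presequences, averaged 126 ± 13.2 CPM in GM47544 libraries and 122 ± 11.6 CPM in pLKO.1 libraries (SD, n = 4). Its log2 fold change of 0.046 (SE 0.12) lay within the spread of the replicates. Tomm70a, the receptor for carrier precursors, averaged 123 ± 10.2 against 131 ± 25.4 CPM (SD, n = 4; -0.086, SE 0.14); it passed only with corrections, at -0.52 with the length trend removed (adjusted p = 0.0011, and 2.21e-05 to 0.947 over 21 alternatives). Tomm34, a cytosolic co-chaperone of precursors that is no subunit of the gate, averaged 52.1 ± 1.16 against 44.8 ± 5.43 CPM (SD, n = 4); its groups did not overlap, and its log2 fold change of 0.22 did not pass (adjusted p = 0.117, and 4.51e-04 to 0.338 over the alternatives). Tomm20l, a relative of Tomm20, had 5 counts in GM47544 libraries and 2 in pLKO.1 libraries and was not tested. Tomm6 had 0 counts in all 8 libraries; in the annotation 76% of its exon bases overlap Gm21981 on the same strand, which had 4 counts in GM47544 libraries and 1 in pLKO.1 libraries, so the Tomm6 level cannot be read from this table.

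All 3 genes of the sorting machinery fell, against 32.1% of all tested genes. Samm50, the core that inserts beta-barrel proteins such as Tomm40, had 129, 128, 130.4 and 122 CPM in GM47544 libraries, against 284, 255, 193 and 325 CPM in pLKO.1 libraries (log2 fold change -1.06, SE 0.14, adjusted p = 5.07e-05). Its exons sum to 6556 bases, and the value was -1.30 with the length trend removed. Of the metaxins, its partner proteins, Mtx1 had 45.4, 44.1, 46.2 and 42.1 CPM in GM47544 libraries, against 90.8, 75.1, 57.5 and 94.6 CPM in pLKO.1 libraries (-0.84, SE 0.15). Mtx2 had 61.2, 67.2, 64.5 and 65.2 CPM in GM47544 libraries, against 97.6, 87.9, 89.3 and 72.8 CPM in pLKO.1 libraries (-0.43, SE 0.11, adjusted p = 0.00505). The groups did not overlap for any of these genes, where 27.5% of all tested genes lay wholly below the controls. Of the Mtx1 exon bases, 30.1% overlap genes on the opposite strand, among them Thbs3, which was higher (0.65); whether the counting used strand is not stated.

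The small TIM chaperones of the intermembrane space were lower for 4 of 5 tested genes, against 32.1% of all tested genes, and Timm9 did not pass. The 4 lower genes are all under 1500 bases, where 68% of tested genes were lower. With the length trend removed 3 of 5 were lower, against 31.1% of all tested genes. Timm8a1, partner of Timm13 in one chaperone hexamer, had 4.89, 6.94, 6.89 and 5.96 CPM in GM47544 libraries, against 28.0, 21.5, 22.0 and 16.8 CPM in pLKO.1 libraries (log2 fold change -1.83, SE 0.18, adjusted p = 4.34e-06). Timm10 had 9.35, 9.14, 7.41 and 7.52 CPM in GM47544 libraries, against 33.7, 28.5, 21.6 and 31.9 CPM in pLKO.1 libraries (-1.78, SE 0.16, adjusted p = 2.91e-06). Timm13 had 60.7, 53.7, 54.9 and 51.7 CPM in GM47544 libraries, against 181, 144, 101 and 197 CPM in pLKO.1 libraries (-1.49, SE 0.18, adjusted p = 1.95e-05). Every GM47544 value of these genes was under every control value, as for 27.5% of all tested genes. With the length trend removed they kept log2 fold changes of -1.25, -0.90 and -0.85. Of the longest Timm8a1 transcript, 43.1% matches the transcribed pseudogene Gm9797 at 95% identity or more. Gm9797 has no row of counts, so some Timm8a1 reads may have been lost or shared.

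Timm8b, a paralogue of Timm8a1, had 36.8, 35.2, 38.7 and 35.2 CPM in GM47544 libraries, against 87.1, 63.1, 53.8 and 82.1 CPM in pLKO.1 libraries (log2 fold change -0.97, SE 0.15, adjusted p = 1.29e-04). It is the shortest member, with 518 bases, and with the length trend removed its value turned to 0.11 and did not pass (adjusted p = 0.295, and 1.87e-09 to 0.428 over 21 alternatives). Of its exon bases 15.6% overlap Nkapd1 on the opposite strand, which rose (0.71). Timm9, which forms the other hexamer with Timm10, averaged 17.7 ± 1.38 CPM in GM47544 libraries and 20.6 ± 2.85 CPM in pLKO.1 libraries (SD, n = 4; -0.22, SE 0.14, adjusted p = 0.174), and its groups overlapped. Timm9 was called lower in 3 of 21 alternatives, with limma, with the GC trend removed (-0.63) and without pLKO.1 library 4 (-0.31), and its adjusted p ran from 3.94e-04 to 0.577 over them all. Timm8a2 had 0 counts in GM47544 libraries and 1 in pLKO.1 libraries and was not tested.

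Both genes of the disulfide relay, which oxidises the small TIM proteins as they enter, fell, against 32.1% of all tested genes. Their changes were of similar size before the length correction. Chchd4, the oxidoreductase that traps them, had 34.9, 29.6, 30.3 and 29.5 CPM in GM47544 libraries, against 91.7, 77.4, 58.4 and 92.0 CPM in pLKO.1 libraries (log2 fold change -1.36, SE 0.15, adjusted p = 1.02e-05). Gfer, the sulfhydryl oxidase that reoxidises Chchd4, had 30.5, 26.1, 30.9 and 28.8 CPM in GM47544 libraries, against 89.2, 72.9, 53.2 and 95.9 CPM in pLKO.1 libraries (-1.42, SE 0.17, adjusted p = 1.79e-05). The values were -1.46 and -1.03 with the length trend removed. Of the longest Gfer transcript, 32.3% matches Dst at 95% identity or more, and Dst was higher (0.999). Some Gfer reads may have been lost or shared. Of 18 tested genes listed as substrates of this relay, 14 fell and 0 rose, with a median of -1.03, against 32.1% lower of all tested genes and 68% of those under 1500 bases. With the length trend removed 10 fell and 2 rose, against 31.1% and 29.6% of all tested genes, with a median of -0.29. With the replicate block added to that fit, 3318 of 11491 tested genes fell, and a similar share of the substrates, 6 of 18. Many of these are short genes, for instance Cox6b1 (708 bases), a subunit of complex IV, at 129 ± 5.11 CPM in GM47544 libraries and 379 ± 89.6 CPM in pLKO.1 libraries (SD, n = 4; -1.55, and -0.59 with the length trend removed). Chchd10, a cristae-associated protein, had -2.44 and Ndufs5, a subunit of complex I, -1.16, which became -1.87 and -0.31 with the length trend removed, and Coa4, an assembly factor of complex IV, had -1.34 and -1.04.

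The carrier translocase genes went apart. Timm22, its channel, had 34.5, 33.8, 34.96 and 32.7 CPM in GM47544 libraries, against 84.5, 62.3, 46.3 and 84.0 CPM in pLKO.1 libraries (log2 fold change -1.03, SE 0.17, adjusted p = 2.31e-04). Timm29, a subunit of the metazoan complex, averaged 58.2 ± 4.29 CPM in GM47544 libraries and 65.9 ± 9.31 CPM in pLKO.1 libraries (SD, n = 4; -0.18, SE 0.12, adjusted p = 0.220), and passed without pLKO.1 library 3 (-0.30, adjusted p = 0.00423, and 0.00423 to 0.875 over 21 alternatives). Timm10b, the small TIM that docks at this complex, was higher, with 4.03, 2.86, 2.53 and 3.95 CPM in GM47544 libraries, against 1.59, 1.61, 1.75 and 1.61 CPM in pLKO.1 libraries (1.02, SE 0.22, adjusted p = 0.00159). The Timm10b groups did not overlap, and the call held in all 21 alternatives, but it rests on 181 counts over the GM47544 libraries and 97 over the pLKO.1 libraries. Timm10b lies on chromosome 7 from 105640056 to 105643637, plus strand, in GENCODE M21, and 11.6% of its exon bases overlap Arfip2 and a small RNA gene on the opposite strand; Arfip2 was lower (-0.42). Gm45799, which overlaps it on its own strand, had 0 counts. Stretches of at least 95% identity to 24 other annotated genes cover 27.6% of the longest Timm10b transcript. Some Timm10b reads may have been lost or shared.

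In the presequence translocase 4 of 5 genes fell, against 32.1% of all tested genes, and 0 rose. Timm50, the receptor that hands presequences to the channel, had 53.7, 52.7, 49.9 and 54.6 CPM in GM47544 libraries, against 149, 107, 82.1 and 150.5 CPM in pLKO.1 libraries (log2 fold change -1.21, SE 0.17, adjusted p = 7.25e-05). Timm17a, a paralogous subunit of the channel, had 57.7, 59.4, 52.8 and 52.9 CPM in GM47544 libraries, against 112, 104, 86.3 and 105 CPM in pLKO.1 libraries (-0.87, SE 0.11, adjusted p = 3.74e-05). Timm17b had 25.7, 27.1, 28.0 and 24.5 CPM in GM47544 libraries, against 54.8, 45.8, 31.4 and 66.2 CPM in pLKO.1 libraries (-0.91, SE 0.19, adjusted p = 0.00105). For Timm17b, pLKO.1 library 3 came close to the GM47544 libraries, while for Timm50 and Timm17a all controls were clearly higher.

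Timm23, the channel-forming subunit, gave few counts, 211 over the GM47544 libraries and 313 over the pLKO.1 libraries. Its log2 fold change of -0.48 (SE 0.20, adjusted p = 0.0458) did not hold in 12 of 21 alternatives, and its groups overlapped. It was lost on leaving out any library other than pLKO.1 library 3 (adjusted p up to 0.119) and with the length trend removed (0.0092, adjusted p = 0.964). A stretch of at least 95% identity to other annotated genes covers 95.6% of its longest transcript, chiefly in Gm10273, so reads may have been lost or shared and the Timm23 value is uncertain. Timm21, which links the translocase to the respiratory chain, averaged 21.4 ± 2.03 CPM in GM47544 libraries and 20.9 ± 5.23 CPM in pLKO.1 libraries (SD, n = 4; 0.030, SE 0.18).

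In the import motor Hspa9, its ATPase, did not pass, while the nucleotide exchange factor Grpel1 and the J-proteins were lower. Of 7 tested genes 3 fell (42.9%, near the 32.1% of all tested genes), 1 rose and 3 did not pass, with a median log2 fold change of -0.26. Hspa9, mitochondrial Hsp70, was the most abundant member by counts, with 727, 717, 688 and 676 CPM in GM47544 libraries, against 711, 763, 1026 and 636 CPM in pLKO.1 libraries (-0.16, SE 0.14, adjusted p = 0.325). The groups overlapped, and pLKO.1 library 3 stood above the other controls. With the GC trend removed Hspa9 was called lower (-0.43), in 1 of 21 alternatives. Grpel1 had 63.8, 58.9, 62.0 and 61.2 CPM in GM47544 libraries, against 147, 129, 101 and 154 CPM in pLKO.1 libraries (-1.11, SE 0.13, adjusted p = 2.05e-05). Its paralogue Grpel2 had 52.3, 50.02, 45.6 and 48.2 CPM in GM47544 libraries, against 51.1, 50.9, 73.2 and 45.8 CPM in pLKO.1 libraries (-0.17, SE 0.14, adjusted p = 0.308), and its groups overlapped. Grpel2 was called lower with the length trend removed (-0.40, adjusted p = 0.00739, and 1.71e-04 to 0.780 over 21 alternatives, 4 of which called it).

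Dnajc19, a J-protein of the motor, had 9.60, 10.1, 8.28 and 9.68 CPM in GM47544 libraries, against 18.2, 16.6, 12.2 and 18.9 CPM in pLKO.1 libraries (log2 fold change -0.80, SE 0.16, adjusted p = 7.4e-04). Dnajc15, its paralogue, had 16.7, 18.2, 15.7 and 19.0 CPM in GM47544 libraries, against 23.8, 27.2, 19.0 and 23.4 CPM in pLKO.1 libraries (-0.42, SE 0.14, adjusted p = 0.0162); the call was lost with library totals alone and without pLKO.1 library 2 or GM47544 library 3 (adjusted p up to 0.072, and from 3.67e-06, over 21 alternatives). Timm44, the anchor of the motor at the channel, averaged 58.6 ± 1.69 CPM in GM47544 libraries and 70.2 ± 9.41 CPM in pLKO.1 libraries (SD, n = 4; -0.26, SE 0.12, adjusted p = 0.0629); it passed without pLKO.1 library 1, 3 or 4 and with DESeq2 or limma (adjusted p 0.0302 to 0.45 over 21 alternatives).

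Pam16, the J-like partner that restrains Dnajc19, was called higher, and the direction turned when a near-identical gene was counted with it. Pam16 had 14.1, 12.4, 12.2 and 12.8 CPM in GM47544 libraries, against 9.29, 7.72, 5.19 and 7.76 CPM in pLKO.1 libraries (log2 fold change 0.79, SE 0.17, adjusted p = 0.00139). Gm9803, a gene annotated as protein coding that matches 89.6% of the longest Pam16 transcript at 95% identity or more, went the other way, with 9.09, 7.99, 6.71 and 8.41 CPM in GM47544 libraries, against 27.0, 20.6, 14.1 and 25.1 CPM in pLKO.1 libraries (-1.42, SE 0.20, adjusted p = 5.46e-05). Summed, both genes had 23.2, 20.4, 18.9 and 21.2 CPM in GM47544 libraries, against 36.3, 28.3, 19.3 and 32.9 CPM in pLKO.1 libraries (-0.47, SE 0.17, adjusted p = 0.0300), with pLKO.1 library 3 inside the GM47544 range. Reads of the shared sequence cannot be assigned to 1 of these genes from a count table, so the direction of Pam16 is uncertain. Of the Pam16 exon bases, 18.7% also overlap Glis2 on the opposite strand, which was higher (0.57).

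**Figure D3:**
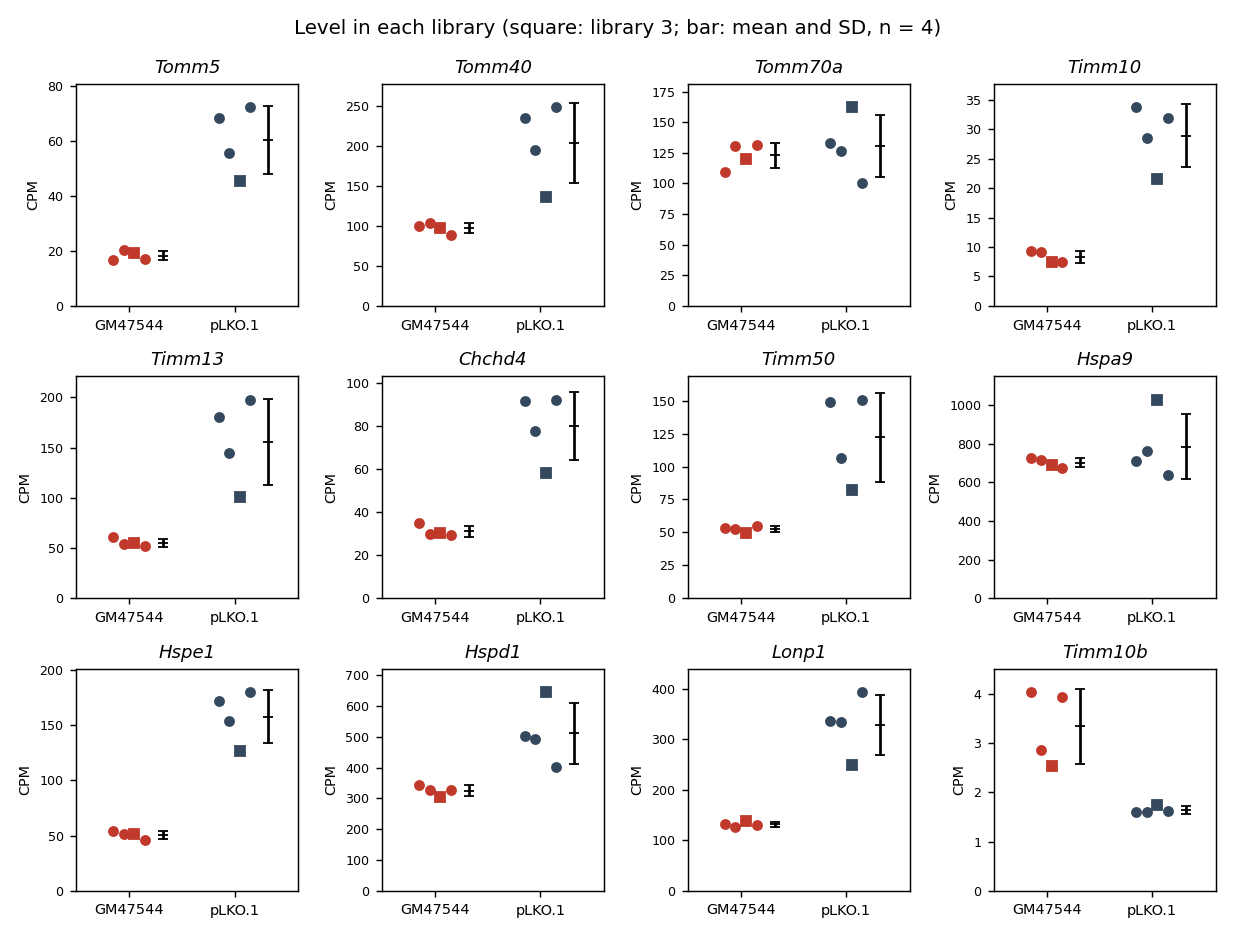
Level in CPM (y axis, from 0) of 12 members in each library, with GM47544 libraries left of pLKO.1 libraries, library 3 of each group as a square, and the mean and SD (n = 4) as a bar. Apart from Timm10b, where they spread more, GM47544 libraries lie closer together than pLKO.1 libraries. Library 3 of pLKO.1 is nearest to GM47544 libraries for Tomm5, Tomm40, Timm10, Timm13, Chchd4, Timm50, Hspe1 and Lonp1. It is the highest library for Tomm70a, Hspa9 and Hspd1.

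The processing peptidase, which removes presequences, differed little. Pmpca, its non-catalytic subunit, had 106, 101, 105 and 103 CPM in GM47544 libraries, against 117, 134, 120.5 and 137 CPM in pLKO.1 libraries (log2 fold change -0.29, SE 0.10, adjusted p = 0.0208); the groups did not overlap, but the call was lost in 7 of 21 alternatives, among them library totals alone and leaving out pLKO.1 library 2 or GM47544 library 2, 3 or 4 (adjusted p 5.25e-04 to 0.157). Pmpcb, the catalytic subunit, had 77.8, 78.7, 74.7 and 86.1 CPM in GM47544 libraries, against 81.4, 79.5, 99.2 and 67.1 CPM in pLKO.1 libraries (-0.045, SE 0.13, adjusted p = 0.770), and was called lower only with the GC trend removed (-0.22), among 21 alternatives. Of Pmpca exon bases, 20.4% overlap Inpp5e on the opposite strand, which did not pass (-0.12).

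All 4 genes of matrix folding and proteolysis fell, against 32.1% of all tested genes. With the length trend removed and the replicate block added, 2 of them were called lower, against 3318 of 11491 tested genes. Hspe1, the Hsp10 lid of the chaperonin, had 54.4, 51.6, 51.4 and 45.7 CPM in GM47544 libraries, against 172, 154, 126 and 179.7 CPM in pLKO.1 libraries (log2 fold change -1.64, SE 0.13, adjusted p = 9.41e-07). Hspd1, the Hsp60 barrel, had 345, 326, 304 and 328 CPM in GM47544 libraries, against 502, 494, 644 and 403 CPM in pLKO.1 libraries (-0.65, SE 0.13, adjusted p = 0.00105). Neither gene's groups overlapped, where 27.5% of all tested genes lay wholly below the controls. Library 3 of pLKO.1 was the lowest control for Hspe1 and the highest for Hspd1. With the length trend removed the values were -1.05 for Hspe1 and -0.38 for Hspd1, where Hspd1 had an adjusted p of 0.0497 (2.94e-07 to 0.065 over 21 alternatives). Near-identical stretches of other annotated genes cover 81% of the longest Hspe1 transcript and 71.1% of that of Hspd1, so some of their reads may have been lost or shared.

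Lonp1, the AAA+ protease of the matrix, had 133, 126, 138 and 129.8 CPM in GM47544 libraries, against 335, 334, 248.9 and 392.4 CPM in pLKO.1 libraries (log2 fold change -1.32, SE 0.13, adjusted p = 5.76e-06). The Lonp1 value was -1.31 with the length trend removed, in a gene of 4374 bases. Clpp, the peptidase of the other soluble matrix protease, had 44.7, 37.1, 44.4 and 36.9 CPM in GM47544 libraries, against 93.2, 80.8, 52.5 and 105 CPM in pLKO.1 libraries (-1.02, SE 0.18, adjusted p = 3.63e-04). Clpp is short, with 1223 bases, and its value was -0.32 with the length trend removed. The Clpp call was lost in 1 of 21 alternatives, with the replicate block added to that fit (adjusted p = 0.0584). Clpx, the ATPase that feeds Clpp, rose (0.60, and 0.73 with the length trend removed), at 58.9 ± 3.27 CPM in GM47544 libraries and 38.8 ± 7.85 CPM in pLKO.1 libraries (SD, n = 4); it is no member and is named because Clpp acts with it.

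For 10 pairs of partner genes, the log2 ratio of their CPM was compared between the groups over libraries. No pair passed after adjustment over the 10 pairs (two-sided exact permutation test). In 5 pairs the ratios of the groups did not overlap. Each had an exact p = 0.0286, the smallest that 4 against 4 libraries allow, and an adjusted p of 0.0571. At this smallest p a pair could pass only if enough other pairs also reached it. The adjusted result therefore cannot decide for any single pair. The Hspd1/Hspe1 log2 ratio was 2.65, 2.65, 2.55 and 2.83 in GM47544 libraries, against 1.54, 1.68, 2.34 and 1.16 in pLKO.1 libraries, a difference of 0.99. The Grpel1/Grpel2 log2 ratio was 0.28, 0.23, 0.44 and 0.34 in GM47544 libraries, against 1.52, 1.33, 0.46 and 1.74 in pLKO.1 libraries, a difference of -0.94. In both pairs pLKO.1 library 3 lay beside the GM47544 libraries and the other controls far from them.

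The other separated pairs were Timm8a1/Timm8b with a difference of -0.81, Dnajc15/Dnajc19 with 0.35 and Lonp1/Clpp with -0.32. For Timm8a1/Timm8b the groups barely separated, with -2.262 in GM47544 library 2 and -2.254 in pLKO.1 library 4. This gap is small enough to depend on the 0.5 CPM added. With the length trend removed, the differences of the fitted log2 fold changes were 0.68 for Hspd1/Hspe1, -0.57 for Grpel1/Grpel2, -1.36 for Timm8a1/Timm8b, 0.095 for Dnajc15/Dnajc19 and -0.99 for Lonp1/Clpp. The ratios overlapped for Mtx1/Mtx2 (difference -0.39, p = 0.143), Pmpca/Pmpcb (-0.26, p = 0.171), Chchd4/Gfer (0.044, p = 0.543), Tomm40/Tomm40l (-0.033, p = 0.800) and Timm17a/Timm17b (-0.012, p = 0.971), all by the same exact test, with adjusted p of 0.238, 0.245, 0.679, 0.889 and 0.971. These p-values do not show that the genes of these pairs moved alike.

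**Figure D4:**
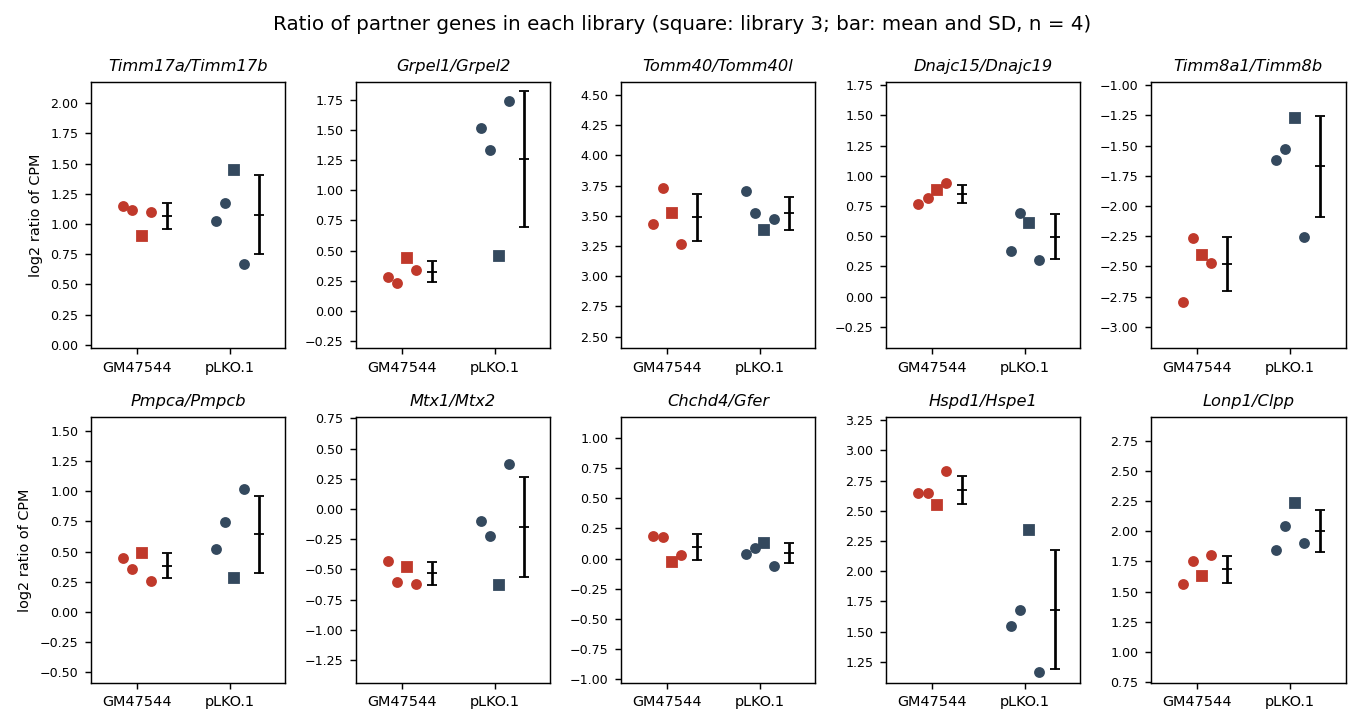
Log2 ratio of the CPM of the partner genes (y axis, the same span in each panel) in each library, GM47544 left of pLKO.1, with library 3 of each group as a square and the mean and SD (n = 4) as a bar. The groups separate for Grpel1/Grpel2, Dnajc15/Dnajc19, Hspd1/Hspe1 and Lonp1/Clpp, and only barely for Timm8a1/Timm8b. Library 3 of pLKO.1 lies nearest to the GM47544 libraries for Grpel1/Grpel2 and Hspd1/Hspe1.

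Among the controls, library 3 lay nearest to the GM47544 libraries for most of the lower members. For 23 of the 27 members called lower it was below the other 3 controls, and for 6 of the 10 members not called it was above them. These counts were not made over all tested genes, so they are not read as particular to the import genes. On the first principal component of all tested genes, library 3 also lay nearest to the GM47544 libraries. Without it 29 members were lower and 2 higher, against 38.7% of all tested genes in each direction, and the median log2 fold change was -0.99. What sets this library apart is not given in the labels, and its part in the results was not tested beyond these values.

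Per length, Hspa9 and Hspd1 were the most abundant members in both groups. Levels were computed as CPM per kilobase of summed exons (RPKM), which understates genes with long alternative exons. In GM47544 libraries Hspa9 was at 163 ± 5.54, Hspd1 at 123 ± 6.37, Timm8b at 70.4 ± 3.21 and Tomm22 at 63.7 ± 2.85 RPKM, against 182 ± 39.3, 193 ± 37.6, 138 ± 30.3 and 119 ± 14.5 RPKM in pLKO.1 libraries (SD, n = 4). The levels of Hspa9 and Hspd1 differed by more than their spread in GM47544 libraries and by less than it in pLKO.1 libraries. At the low end, Timm10b was at 0.933 ± 0.212 and Tomm40l at 1.605 ± 0.139 RPKM in GM47544 libraries, against 0.458 ± 0.0204 and 3.35 ± 0.749 RPKM in pLKO.1 libraries. Hspa9 took 24.4 ± 0.321% of all member counts in GM47544 libraries and 17.3 ± 4.43% in pLKO.1 libraries (SD, n = 4).

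Related genes outside the module were also lower more often than higher. Of 65 tested genes on 6 lists, 38 fell and 6 rose, against 32.1% lower and 32.3% higher of all tested genes, with a median log2 fold change of -0.50. With the length trend removed 31 fell and 7 rose, against 31.1% and 29.6% of all tested genes, with a median of -0.27. The single lists below hold few genes and are set against the same shares. Mitochondrial proteases and other matrix chaperones fell for 9 of 13 and rose for 2, Clpx and Oma1, against 32.1% lower and 32.3% higher of all tested genes. Those that fell included the intermembrane space protease Htra2 (-0.99), the scaffold prohibitin Phb2 (-0.88), the J-protein Dnaja3 (-0.54) and the disaggregase Clpb (-0.66). Genes of presequence processing and membrane insertion fell for 6 of 11 and rose for 2, Mtx3 (1.03) and Xpnpep3 (0.54), with Mtch2, an outer membrane insertase, at 55.8 ± 2.63 CPM in GM47544 libraries and 91.5 ± 6.44 CPM in pLKO.1 libraries (SD, n = 4; -0.71), Mtch1 at -0.74, Romo1 at -1.25 and Timmdc1 at -0.59. The Romo1 and Timmdc1 values were -0.31 and -0.090 with the length trend removed. This list then had 4 of 11 genes lower, near the 31.1% of all tested genes, and 2 higher, with a median of -0.090. With the replicate block added to that fit, 3 of its genes were lower. Genes of the cristae organising system fell for 3 of 6 and rose for 0, against 32.1% lower of all tested genes, with Minos1 at -1.12, Chchd3 at -0.86 and Chchd6 at -0.53, and Immt, its core, at 0.012. Immt was called lower with the length trend removed (-0.52), and Chchd6 was then not called (-0.21). Clpx, Oma1, Mtx3, Xpnpep3 and Immt, and below Nrf1, Tfam, Gabpa and Gabpb1, were chosen after their values were seen.

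Of 10 tested transcription factors of mitochondrial stress and biogenesis, 5 fell and 2 rose, against 32.1% lower and 32.3% higher of all tested genes. Atf5, a regulator of the mitochondrial unfolded protein response, averaged 36.4 ± 3.70 CPM in GM47544 libraries and 188 ± 39.8 CPM in pLKO.1 libraries (SD, n = 4), a difference of -2.37 on the log2 scale (adjusted p = 3.02e-07, SE 0.16). Atf4, a general regulator of the integrated stress response, averaged 221 ± 11.2 CPM in GM47544 libraries and 676 ± 117 CPM in pLKO.1 libraries (SD, n = 4; -1.61, SE 0.13, adjusted p = 1.38e-06). Ddit3, which encodes CHOP, had -0.91 and Esrra, a nuclear receptor of mitochondrial biogenesis, -0.81. With the length trend removed Atf5, Atf4, Ddit3 and Esrra had -1.92, -1.25, -0.43 and -0.81. Nrf1 did not pass (-0.10) but was called lower with the length trend removed (-0.59), Tfam, which packages mitochondrial DNA, was at -0.0027, and Gabpa and Gabpb1, the subunits of GABP, rose by 0.65 and 0.52; Gabpb1 did not pass with the length trend removed (0.22). Of 7 cytosolic chaperones that bring precursors to mitochondria, Hsp90ab1 fell (-0.40, and -0.17 with the length trend removed) and 0 rose, with a median of -0.091.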

How the data were processed

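The authors deposited raw counts per gene symbol for 8 libraries, with no normalization, per the file headers and values. FastQC, STAR, HTSeq and mm10 are named in the submitters' processing notes; versions, annotation and strand setting are not given in any source used here. Tests used edgeR 4.0.16 under R 4.3.3, with filterByExpr (minimum count 10), trimmed-mean scaling, and the two-sided quasi-likelihood test of group over all 11520 tested genes, with Benjamini-Hochberg adjustment at 0.05. Standard errors are the log2 fold change over the square root of F. CPM uses the scaled library sizes. Lengths, overlaps and transcripts came from GENCODE M21 (GRCm38), which matched 21926 of 21983 symbols, and similar transcripts from BLAST 2.17.0. Length and GC trends were removed as offsets (lowess, span 0.3). The pair ratios had 0.5 CPM added. Exact permutation tests used SciPy 1.17.1. Promoters came from RefSeq on GRCm38.p6. The fit was tested on simulated data. Alternatives included limma 3.58.1 and DESeq2 1.42.0.

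Genes named with values in every library were, within each role, the 3 called genes with the largest change, any called against the main direction, and the partner pairs; Hspa9 falls outside this rule and was added after its values were seen; in other lists, up to 4 called genes with the smallest p. The members and lists were chosen with earlier results of these data known. Library pairs of a group differed by a chi-square of 2.44 to 106 per gene, so none matched within counting noise.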

Additional observations from a re-analysis of the deposited data

Results flagged for a closer look

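Of 100 groups of 4 values examined, 2 held a library far from the other 3, where chance alone flags about 1 in 20 groups. In GM47544 library 1 Chchd4 was at 34.9 CPM, while the remaining GM47544 libraries held 29.5 to 30.3 CPM. In pLKO.1 library 3 Timm10b was at 1.75 CPM, while the remaining pLKO.1 libraries held 1.59 to 1.61 CPM.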

How the results depend on the processing

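Over 21 alternatives, 21 of the 27 lower calls and 1 of the 2 higher calls were kept in every one, and the number of lower members ran from 24 to 33. Leaving out each library gave 24 to 29 lower and 2 higher members, with a median log2 fold change of -0.99 to -0.75, and the share of counts stayed at 0.297% to 0.303% in GM47544 libraries and 0.434% to 0.437% in pLKO.1 libraries. The median moved to -0.58 with the length trend removed and to -0.56 with that and the replicate block. Without Hspd1, Hspa9 and Hspe1 the members held 0.188% of counts in GM47544 libraries and 0.295% in pLKO.1 libraries, which follows from leaving these genes out. Chosen after seeing the data, summing Pam16 with Gm9803 left 1 higher member, Pam16 turning to -0.47; the length correction with the replicate block left 25 lower genes on the other lists, and with pLKO.1 library 3 left out 13 higher ones. Timm8b turned to 0.11 with the length trend removed, 0.11 with the block added and 0.092 without pLKO.1 library 3; Timm23 turned to 0.0092 and 0.013 with the length trend removed, alone and with the block; and Timm21 to -0.40 with GC content removed, where it was called lower. The cause was not tested. The same-numbered libraries did not deviate together (correlations of 0.02, -0.012, -0.068 and -0.092), which does not exclude that they were prepared together. The fit with the replicate block gave 25 lower and 2 higher members. Over each library left out, the pair differences stayed at 0.81 to 1.21 for Hspd1/Hspe1, -1.20 to -0.78 for Grpel1/Grpel2, -1.01 to -0.68 for Timm8a1/Timm8b, 0.29 to 0.42 for Dnajc15/Dnajc19 and -0.37 to -0.24 for Lonp1/Clpp; 3 against 4 libraries cannot go below p = 0.0571 in the exact permutation test, so these are values without a test. Depth limits Timm10b, Timm23, Tomm20l and Timm8a2, which have few counts.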
